A study of Mus musculus with 5 samples.

Results

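Amino acid and osmolyte transporters were taken as the genes of the deposited table whose symbols carry the family stems Slc1a, Slc3a, Slc6a, Slc7a, Slc36a, Slc38a or Slc43a followed by a number. This rule, which uses names and no values, found 67 of the 32285 genes. Of these, 63 are named as carriers or their subunits. The other 4 carry the ending "os" and are no transporters: 3 are long non-coding RNA genes (Slc36a1os, Slc36a3os and Slc6a19os), and Slc7a6os is a protein-coding neighbour of Slc7a6. The transcripts of 2-cell mouse embryos were sequenced (RNA-seq), in 3 libraries of embryos cultured for 24 h with 25 nM PNMC and in 2 control libraries cultured with the same volume of DMSO, the solvent. All embryos came from oocytes of hormone-primed females aged 6 to 9 weeks, fertilised in vitro for about 6 h with sperm of males aged 12 to 16 weeks, and both groups were kept in KSOM, an embryo culture medium. The labels give no strain or genotype, do not spell out PNMC, and do not say how many embryos each library held or whether the libraries came from separate cultures, so every p-value below rests on the spread between the 5 libraries alone, and that spread may be technical.

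Carriers of these families move amino acids and related small solutes across the plasma membrane or the lysosomal membrane. The SLC1, SLC6 and SLC38 families include carriers driven by sodium, and the SLC36 family includes carriers coupled to protons. Many SLC7 carriers are exchangers that reach the cell surface only when paired with a heavy chain, SLC3A1 or SLC3A2. Early mouse embryos take up glycine and betaine not only as nutrients but also as organic osmolytes that set cell volume, and glycine enters mainly through GLYT1, the product of Slc6a9.

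The deposited values are a normalised signal with no stated unit, and they carry no information on sequencing depth. Over all genes they summed to between 446010 and 454548 in every library, and control library 2 listed 18595 genes above 0, against 17408 to 17635 in the other 4. The 6 markers of the 2-cell embryo and the 8 oocyte and maternal markers were above the detection limit in all their members, led by Zfp352 (229.9 to 332 over the 5 libraries) and Btg4 (3400 to 3919). Of the 12 cumulus cell markers 2 passed the limit and Ptx3, Amh, Inhba and Foxl2 were listed at 0 in every library. The summed level of the 12 was 5.65 to 7.14 in PNMC libraries and 7.56 to 10.7 in controls. Of the 9 blood and immune markers 2 passed and Cd3e was at 0, with sums of 7.13 to 8.92 in PNMC libraries and 10.9 to 11.8 in controls. Both sums thus lay lower in every PNMC library, but the most abundant marker of each list overlapped between the groups. Cyp19a1 ran from 2.69 to 4.03 in PNMC libraries and from 2.46 to 3.96 in controls. Hba-a1 ran from 4.57 to 8.09 in PNMC libraries and from 7.16 to 8.29 in controls. The part of these markers in any result was not tested. The 8 sperm markers (2 passed; Prm1, Tnp2 and Smcp at 0) summed to 6.88 to 12.2 in PNMC libraries and 5.85 to 8.07 in controls, and the 7 oviduct markers (3 passed; Pax8 at 0) to 66.1 to 118 and 79.3 to 80.1, most of it Epcam and Cdh1, which embryos also express.

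A gene was counted as detected where 2 or more of the 5 libraries reached a value of 1. By this limit 26 of the 67 genes were detected: Slc7a6os and 25 of the 63 carrier genes. Of the detected genes 17 reached 1 in all 5 libraries, and 11 had a mean of at least 5. A further 26 had values above 0 in some library but were not detected, and 2 of them, Slc6a16 and Slc38a10, reached 1 in a single library. The remaining 15 were listed at 0 throughout. Gapdh, which every cell uses, was listed at only 1.008 to 1.38 over the 5 libraries, and Actb at 88.6 to 154. A low or 0 value in this table is therefore given as listed, and not as absence of the transcript.

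**Figure D1:**
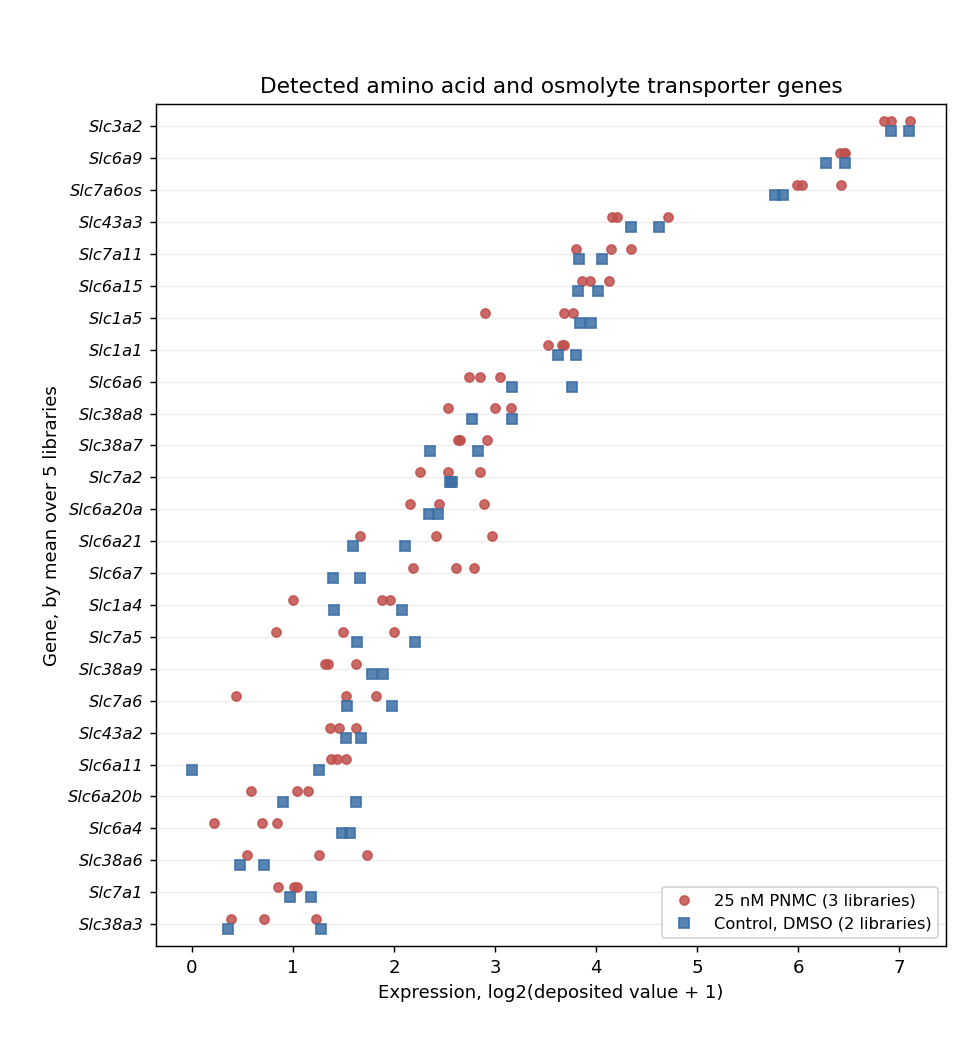
Expression of the 26 detected genes as log2(deposited value + 1), 1 row a gene in order of mean level. Red circles are the 3 PNMC libraries and blue squares the 2 controls. Slc3a2 and Slc6a9 stand above all other carrier genes in all 5 libraries, and in most rows the colours mix.

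A pair of genes held most of the summed carrier signal. Slc3a2 encodes the heavy chain 4F2hc (CD98) and had values of 119.7, 137 and 114 in PNMC libraries 1, 2 and 3, against 120.0 and 136 in control libraries 1 and 2. Slc6a9 had 87.1, 86.9 and 84.6 in PNMC libraries, against 76.6 and 87.0 in controls. Both genes lay within the same range in the 2 groups, and every Slc3a2 value was above every Slc6a9 value. Together they made up 59.8%, 65.9% and 59.5% of the summed level of the 63 carrier genes in PNMC libraries, against 59.5% and 61.5% in controls. The sum itself was 340 ± 5.82 in PNMC libraries (SD, n = 3) and 347 ± 22.6 in controls (SD, n = 2).

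On the deposited scale the carriers with a mean of at least 5 ran in the order Slc3a2, Slc6a9, Slc43a3, Slc7a11, Slc6a15, Slc1a5, Slc1a1, Slc6a6, Slc38a8 and Slc38a7. Only Slc3a2 and Slc6a9 were separated from the gene that follows them: from Slc43a3 downward each gene's range over the 5 libraries overlapped that of the next. The sources used here do not say whether the values are already per length. When each mean was divided by the length of the gene's longest GENCODE M21 transcript, Slc3a2 and Slc6a9 were still first and second. Of the 10 highest carriers 9 were the same, but their order changed. Among all 67 genes Slc7a11 went from rank 5 to 9, Slc6a6 from 9 to 12 and Slc1a5 from 7 to 5.

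**Figure D2:**
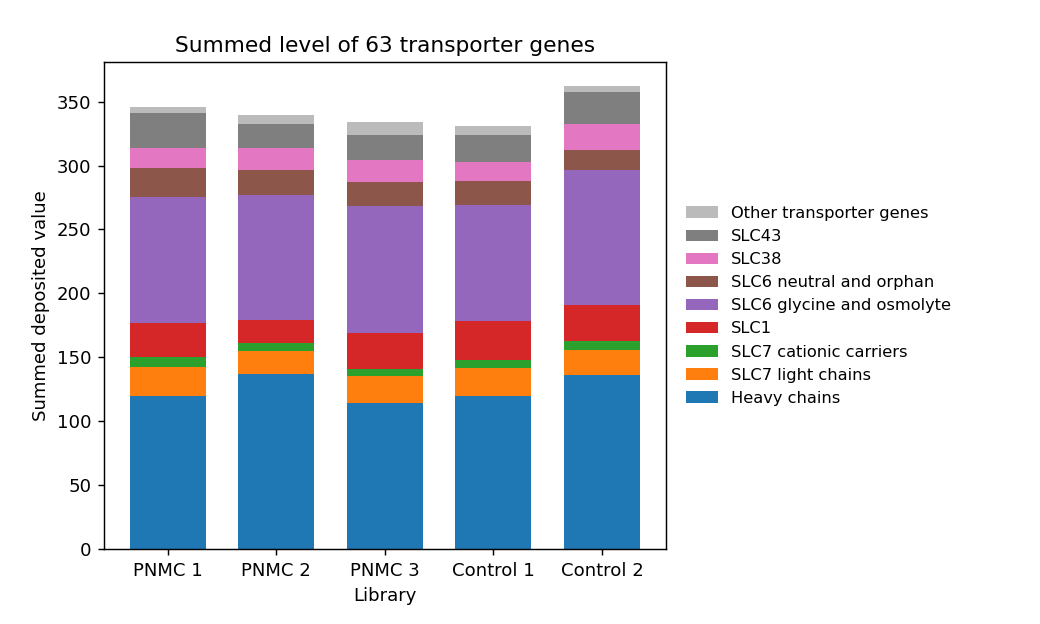
Summed deposited values of the 63 carrier genes in each library, stacked by the members' roles. The heavy chains and the SLC6 glycine and osmolyte carriers are the tallest blocks in all 5 bars, whose totals run from 331 (control library 1) to 363 (control library 2).

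The heavy chains and their light chains form the amino acid exchangers of the cell surface. The other heavy chain gene, Slc3a1 (rBAT), was not detected, with 0.144, 0 and 0.154 in PNMC libraries, against 0 and 0.293 in controls. Its light chain partner Slc7a9 was not detected either, and was above 0 in 2 PNMC libraries only, at 0.471 and 0.104. Among the 6 light chains known to pair with SLC3A2, Slc7a11 was the most abundant. It encodes xCT, which imports cystine in exchange for glutamate, and had 16.7, 13.0 and 19.3 in PNMC libraries, against 15.7 and 13.2 in controls. The groups overlapped. On the deposited scale Slc7a11 made up 76.2%, 70.5% and 93.0% of the summed light chain level in PNMC libraries, against 73.2% and 68.8% in controls. These shares depend on transcript length if the values are not already per length. Per kilobase of the longest GENCODE M21 transcript, the mean was 1.69 for Slc7a11, 0.644 for Slc7a5 and 0.513 for Slc7a6.

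Slc7a5, the gene of the large neutral amino acid exchanger LAT1, had 3.003, 1.81 and 0.786 in PNMC libraries, against 3.63 and 2.10 in controls. Slc7a6, of the exchanger y+LAT2, had 1.88, 2.55 and 0.353 in PNMC libraries, against 1.89 and 2.95 in controls. PNMC library 3 held the lowest value of both genes, and the groups overlapped in both. The light chain genes Slc7a7, Slc7a8, Slc7a12, Slc7a13 and Slc7a15 stayed under the limit, as did Slc7a10.

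The promoter windows of the most abundant light chain gene and its heavy chain partner are shown because both genes are known targets of ATF4, the factor of the amino acid response. The windows are RefSeq's, hold 300 bases, most of them before the annotated start, and are on build GRCm38.p6, Slc7a11 at chr3:50443564-50443863 on the minus strand and Slc3a2 at chr19:8713848-8714147 on the minus strand. Capitals mark the letters TGATGNAA, the core of the element that ATF4 binds, on either strand.
Slc7a11: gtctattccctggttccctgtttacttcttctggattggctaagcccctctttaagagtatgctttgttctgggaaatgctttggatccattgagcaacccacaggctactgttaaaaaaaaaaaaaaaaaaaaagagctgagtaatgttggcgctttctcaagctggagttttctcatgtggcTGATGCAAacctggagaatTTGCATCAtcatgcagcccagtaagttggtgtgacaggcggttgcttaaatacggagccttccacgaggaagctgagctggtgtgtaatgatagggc
Slc3a2: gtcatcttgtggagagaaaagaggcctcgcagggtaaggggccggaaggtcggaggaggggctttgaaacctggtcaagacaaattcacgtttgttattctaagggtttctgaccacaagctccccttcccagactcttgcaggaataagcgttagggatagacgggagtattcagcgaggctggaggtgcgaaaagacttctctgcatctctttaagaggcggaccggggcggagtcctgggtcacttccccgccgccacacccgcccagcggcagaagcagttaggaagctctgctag
The Slc7a11 window held 2 such matches, 1 on each strand, and the Slc3a2 window held none. RefSeq windows were matched by symbol to 49 of the 67 genes and to 18 of the 26 detected ones. TGATGNAA was found in 3 of the 23 windows of detected genes, in Slc7a11, Slc1a4 and Slc6a21, or 13% of them, and in 3.97% of all 32851 windows. Of the 70 windows of all 49 matched genes 5 held it (7.14%), the others being windows of the undetected Slc7a7. No test of these shares was run. A match is a description of these letters and not a measured site.

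Cationic amino acid carriers of the SLC7 family, which bring in arginine and lysine without a heavy chain, were low. Slc7a2 (CAT2) had 6.23, 3.77 and 4.81 in PNMC libraries, against 4.87 and 4.95 in controls, so the controls lay inside the PNMC range. Slc7a1 (CAT1) was close to the limit in every library, between 0.801 and 1.27. Slc7a3 was listed at 0 throughout, and Slc7a4 and Slc7a14 did not reach 1 in any library.

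Glycine and osmolyte carriers of the SLC6 family were the other abundant class, through Slc6a9. Their summed level was 98.5 ± 0.530 in PNMC libraries (SD, n = 3) and 97.9 ± 11.1 in controls (SD, n = 2). Slc6a6, the gene of the taurine carrier TauT, had 7.27, 5.70 and 6.22 in PNMC libraries, against 8.003 and 12.6 in controls. All 3 PNMC values lay below both controls, while control library 2 alone held the high value. Slc6a20a, a gene of the betaine and proline carrier SIT1, had 3.45, 4.44 and 6.42 in PNMC libraries, against 4.40 and 4.09 in controls. Its neighbour and close copy Slc6a20b had 0.503, 1.06 and 1.23 in PNMC libraries, against 0.864 and 2.07 in controls. Neither copy separated the groups, and Slc6a20a was the higher of the pair in every library. In the GENCODE M21 transcripts 15.3% of the 50-base words of Slc6a20a also occur in other genes, mainly Slc6a20b, so part of their reads could be split between them. The creatine carrier gene Slc6a8 was listed at 0 in all 5 libraries, and the genes of the betaine and GABA carrier BGT1 (Slc6a12) and of GLYT2 (Slc6a5) were above 0 in 1 library each.

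Other SLC6 genes fell into a few detected members and many at or near 0. Slc6a15, the gene of the branched-chain amino acid and proline carrier B0AT2, had 16.5, 13.6 and 14.3 in PNMC libraries, against 15.2 and 13.1 in controls. Its values varied by 9.42% between the 5 libraries (coefficient of variation). Slc6a7, known as a proline carrier of brain synapses, had 5.12, 5.91 and 3.55 in PNMC libraries, against 1.63 and 2.18 in controls. Every PNMC value was above both controls. Slc6a21 had 2.17, 4.35 and 6.83 in PNMC libraries, against 3.31 and 2.02 in controls, a spread among PNMC libraries that covered both controls.

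Neurotransmitter carriers were at the edge of detection. Slc6a4, the serotonin carrier gene, had 0.164, 0.622 and 0.792 in PNMC libraries, against 1.80 and 1.95 in controls. It was the 1 member that passed the limit only through the controls, so that it had to lie lower with PNMC, and only Slc38a6 passed through PNMC libraries alone. Slc6a11, a GABA carrier gene, had 1.59, 1.71 and 1.89 in PNMC libraries, against 1.39 and 0 in controls. The separation of its groups thus rests on a value listed at 0 in control library 2 and on a small gap to control library 1. The GABA carrier gene Slc6a13 and the dopamine and noradrenaline carrier genes Slc6a3 and Slc6a2 were not detected.

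Of the SLC1 family, glutamate and small neutral amino acid carriers were both present. Slc1a5, the gene of the glutamine exchanger ASCT2, had 11.8, 6.47 and 12.6 in PNMC libraries, against 14.5 and 13.3 in controls. The 3 PNMC values lay below both controls, and PNMC library 2 stood apart from the rest. Slc1a1 (EAAT3), which takes up glutamate and cysteine, had 11.8, 10.5 and 11.7 in PNMC libraries, against 11.3 and 12.9 in controls, with a coefficient of variation of 7.59%. Slc1a4 (ASCT1), the serine and alanine exchanger gene, ranged from 0.998 in PNMC library 2 to 3.23 in control library 1. The nervous system glutamate carrier genes Slc1a2 and Slc1a7 were at 0 in every library, and Slc1a3 and Slc1a6 stayed under 1.

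In the SLC38 family of sodium-coupled neutral amino acid carriers, the 2 most abundant genes were Slc38a8 and Slc38a7. Slc38a8 had 4.79, 6.98 and 7.92 in PNMC libraries, against 5.83 and 8.01 in controls. Slc38a7, whose human product exports glutamine from lysosomes, had 5.31, 6.56 and 5.20 in PNMC libraries, against 4.13 and 6.12 in controls. Both sets of values overlapped between the groups. Slc38a9, whose human product senses lysosomal arginine for the growth kinase complex mTORC1, had 1.49, 2.08 and 1.54 in PNMC libraries, against 2.72 and 2.44 in controls, with no overlap. Slc38a6 had 2.33, 0.459 and 1.40 in PNMC libraries, against 0.395 and 0.638 in controls, and the groups overlapped. Of its 50-base words 22.8% also occur in other genes, mainly D10Wsu102e, so part of its reads could be assigned elsewhere. Slc38a1, Slc38a2 and Slc38a4, which lie next to each other in the RefSeq gene order, were all undetected. Slc38a2 encodes SNAT2, the carrier that many cells induce under hypertonic stress or amino acid shortage, and it was listed at 0 in all libraries but control library 2, at 0.357.

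Among the SLC43 genes Slc43a3, whose human product carries purine bases and not amino acids, was the most abundant, with 25.2, 16.9 and 17.4 in PNMC libraries, against 19.4 and 23.7 in controls. Slc43a2 (LAT4), a carrier of large neutral amino acids, ranged from 1.58 to 2.18, and Slc43a1 (LAT3) was not detected. None of the 4 SLC36 genes was detected, Slc36a1 reaching at most 0.463. Slc7a6os, which is related to a yeast factor for the nuclear import of RNA polymerase II, had 64.8, 84.6 and 62.5 in PNMC libraries, against 53.7 and 56.5 in controls. Its values exceeded those of the adjoining carrier gene Slc7a6 in every library, and its PNMC values were all above both controls. The GENCODE M21 exons of Slc7a6os overlap no gene on the other strand. Such overlap affects 8 of the 26 detected genes, among them Slc6a9, for 30.3% of its exonic bases, and Slc1a1, for 31.9%. Smart-seq2 keeps no strand, so reads there cannot be assigned to 1 gene.

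Of 13 adjacent pairs within the set in the RefSeq gene order, both genes were detected in 2 (Slc6a20a with Slc6a20b, and Slc7a6 with Slc7a6os), 1 gene in 2 (among them Slc6a21 beside Slc6a16) and none in 9.

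The single comparison of the study asks which transcripts differ with PNMC. No gene of the set rose or fell at an adjusted p under 0.05 (limma, Benjamini-Hochberg over 12734 genes), and the lowest adjusted p among the 26 was 0.967, for Slc6a7. Over all tested genes the count was also 0 (0%), with a lowest adjusted p of 0.172. Before adjustment, limma p was under 0.05 for 2 of the 26, where 4.99% of all tested genes met that limit. They were Slc6a7, higher as in 1.73% of all tested genes, and Slc6a4, lower as in 3.27%. Slc6a4 passed the detection limit through the controls only, so its direction was fixed in advance. Mean log2 values were higher with PNMC in 10 of the 26 genes and lower in 16, where 43.1% of all tested genes were higher. The median log2 change was -0.06 in the set and -0.05 over all tested genes.

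Slc6a7 averaged 4.86 ± 1.20 in PNMC libraries (SD, n = 3) and 1.90 ± 0.387 in controls (SD, n = 2), a log2(value + 1) change of 1.00 (SE 0.339, limma adjusted p = 0.967). For Slc6a4 the change was -0.94 (SE 0.417, limma adjusted p = 0.976). Slc6a6 averaged 6.40 ± 0.800 in PNMC libraries and 10.3 ± 3.24 in controls, a change of -0.59 (SE 0.284, limma adjusted p = 0.986) that was -0.29 without control library 2. Slc1a5 averaged 10.3 ± 3.34 in PNMC libraries and 13.9 ± 0.845 in controls, a change of -0.45 (SE 0.288, limma adjusted p = 0.993) that was -0.17 without PNMC library 2. The change of Slc7a6os was 0.34 (SE 0.175, limma adjusted p = 0.989), and 0.20 without PNMC library 2. None of these differences passed the threshold once the p-values were adjusted over all genes tested. Changes on this scale understate those of low genes.

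**Figure D3:**
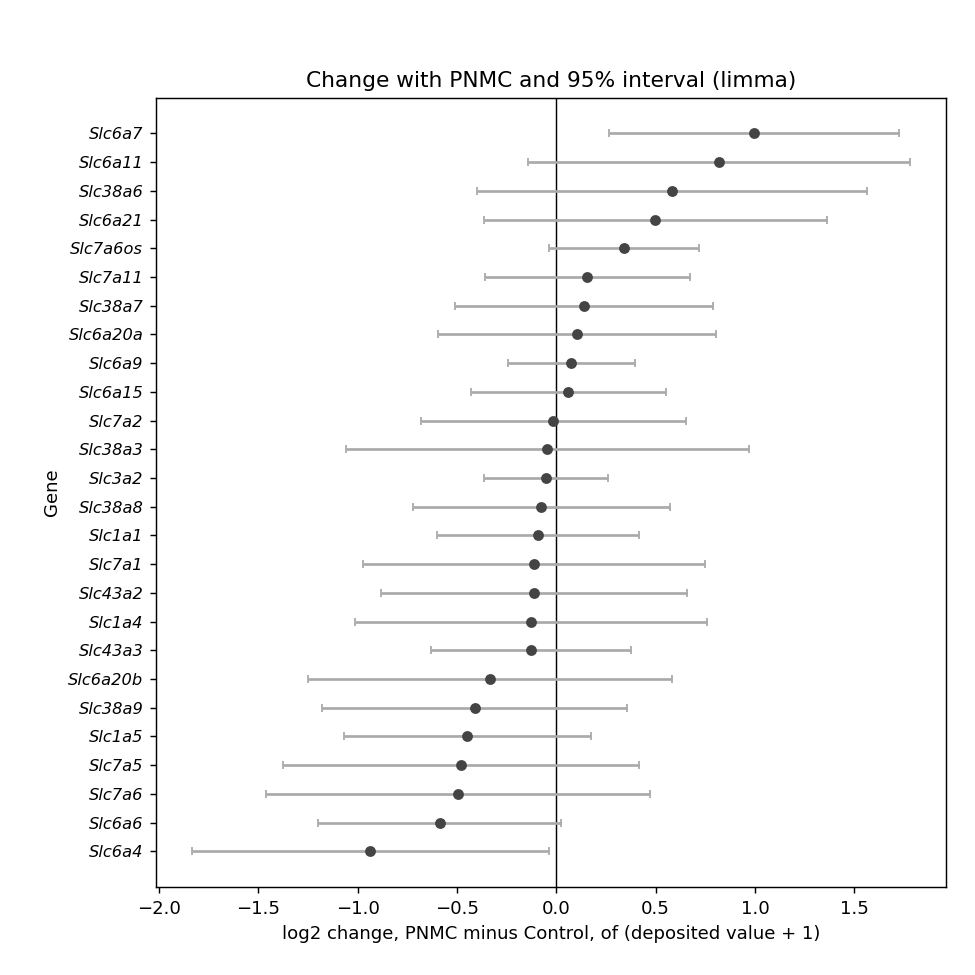
Log2 change of (deposited value + 1), PNMC minus control, for the 26 detected genes, with limma's 95% intervals. The intervals of Slc6a7 (top) and Slc6a4 (bottom) leave out 0 before adjustment, and neither gene passed the adjusted threshold.

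For the abundant carriers the intervals were narrow. That of Slc3a2 ran from -0.36 to 0.26 and that of Slc6a9 from -0.24 to 0.40. The interval of Slc7a11 ran from -0.36 to 0.67 and that of Slc1a1 from -0.60 to 0.42. Of the 11 genes with a mean of at least 5, 9 had a 95% interval within 1 log2 unit in either direction, the exceptions being Slc6a6 and Slc1a5. Among all 26 the count was 13, against 61.4% of all genes tested.

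The 3 PNMC values lay entirely above or below both controls in 7 of the 26 genes, where 19.9% of all tested genes did so. Slc7a6os, Slc6a7 and Slc6a11 lay above the controls, as did 7.97% of all tested genes, and Slc1a5, Slc6a6, Slc38a9 and Slc6a4 lay below them, as did 11.9%. The place of Slc6a4 below the controls was fixed by the detection limit, which it passed through the controls only. The summed cumulus and blood markers given above were also lower in every PNMC library, and their part in these differences was not tested. An exact two-sided permutation test of a single gene cannot go below p = 0.2 with 3 libraries against 2.

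**Figure D4:**
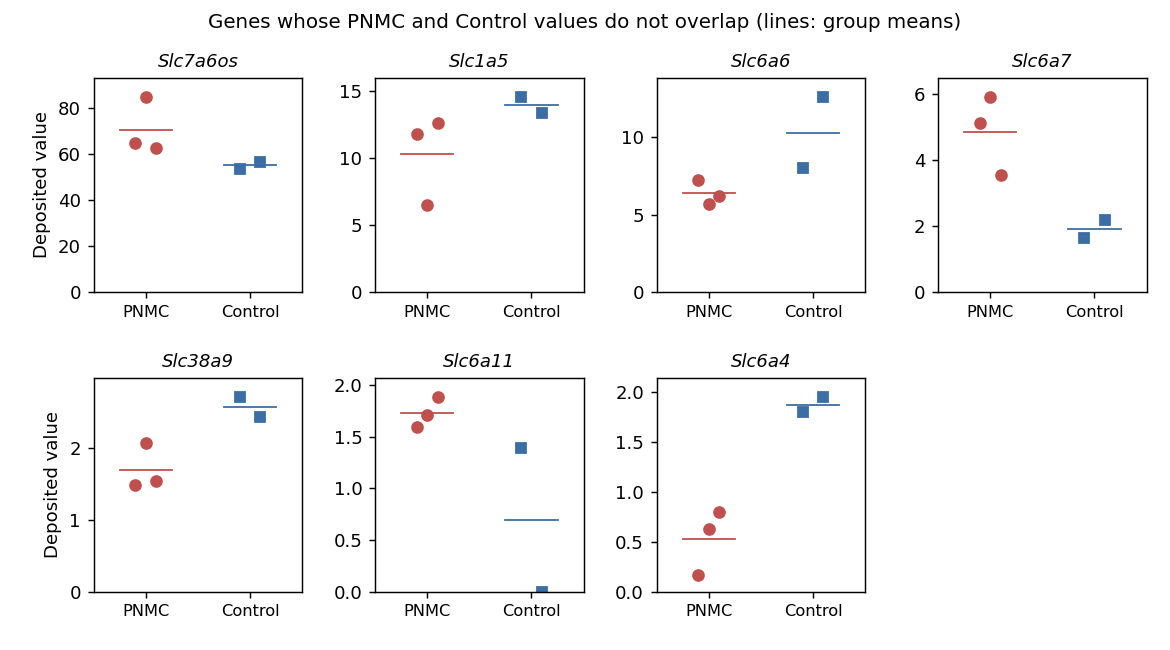
Deposited values of the 7 detected genes of the set in which the 3 PNMC values (red circles) and the 2 control values (blue squares) do not overlap. Lines are group means, and each panel starts at 0 on its own scale. The gap between the groups is smallest beside the spread in Slc6a6, Slc1a5 and Slc6a11.

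Genes that work with these carriers were described from 4 lists, by their counts and medians. In the list for osmotic and ion-based volume control, 19 of 23 genes were tested, 0 passed, 9 were higher and 10 lower with PNMC, and the median log2 change was -0.00359. Its most abundant members were Akr1b3, the aldose reductase gene that makes the osmolyte sorbitol, at 302 ± 34.2 in PNMC libraries and 263 ± 28.1 in controls, Lrrc8e, a subunit of the volume-regulated anion channel, at 19.7 ± 2.96 and 22.5 ± 0.974, and the water and solute channel gene Aqp9, at 18.7 ± 2.35 and 21.3 ± 8.71 (SD, n = 3 and n = 2). Slc5a3, which imports the osmolyte myo-inositol, is no member of the SLC families above and is named after its values were seen. It had 1.14, 1.00 and 1.53 in PNMC libraries, against 2.26 and 2.50 in controls (log2 change -0.61, SE 0.370, limma adjusted p = 0.993). Of its 19 tested genes 2 had an unadjusted limma p under 0.05, a limit met by 4.99% of all tested genes. They were Stk39 and Aqp3, also named after their values were seen. Both were higher with PNMC and did not overlap with the controls, as in 7.97% of all tested genes. Aqp3 reached 1 in PNMC libraries only, so that it had to lie higher with PNMC. Stk39, the gene of the kinase SPAK that controls chloride cotransporters, had 4.87, 2.71 and 4.34 in PNMC libraries, against 1.61 and 1.89 in controls (log2 change 0.83, SE 0.351, limma adjusted p = 0.967). Aqp3, a water and glycerol channel gene, had 3.08, 1.61 and 1.07 in PNMC libraries, against 0.402 and 0.202 in controls (log2 change 1.11, SE 0.432, limma adjusted p = 0.967).

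The amino acid response list, which holds the kinase gene Eif2ak4, Atf4 and ATF4 target genes, had 23 of 26 genes tested. None passed, 13 were higher and 10 lower, and the median was 0.03. Mthfd2, a mitochondrial folate enzyme, had 401 ± 9.47 in PNMC libraries and 396 ± 33.5 in controls, Cth, which makes cysteine, had 114 ± 28.9 and 96.6 ± 0.175, and the leucine sensor gene Sesn2 had 86.0 ± 9.33 and 91.0 ± 28.8 (SD, n = 3 and n = 2). Atf4 itself, named after its values were seen, had 64.2 ± 3.26 in PNMC libraries and 60.2 ± 11.6 in controls, with an interval of the log2 change from -0.26 to 0.47. The gene of this list with an unadjusted limma p under 0.05, a limit met by 4.99% of all tested genes, was Ddit3, the stress factor CHOP. It was likewise named after its values were seen. It had 18.0, 22.6 and 22.8 in PNMC libraries, against 29.9 and 34.2 in controls (log2 change -0.58, SE 0.204, limma adjusted p = 0.967). The groups did not overlap, with PNMC lower, as in 11.9% of all tested genes.

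In the list of enzymes of osmolyte and amino acid metabolism, 20 of 25 genes were tested, 0 passed, 7 were higher and 13 lower, and the median was -0.07. Cdo1, which turns cysteine toward taurine, was the most abundant of them at 570.0 ± 29.9 in PNMC libraries and 604 ± 14.5 in controls. Gcsh, of the glycine cleavage system, had 234 ± 31.8 and 217 ± 38.6, and Glul, glutamine synthetase, had 141 ± 12.1 and 169 ± 35.3 (SD, n = 3 and n = 2). The gene with the smallest p of this list was Bhmt, which uses betaine to remake methionine and is named after its values were seen. It had 0.172, 0.276 and 0.377 in PNMC libraries, against 2.43 and 2.93 in controls (log2 change -1.53, SE 0.404, limma adjusted p = 0.866). Like Slc6a4, it reached 1 in the controls only, so that it had to lie lower with PNMC. Of the 20 tested genes it alone had an unadjusted limma p under 0.05, a limit met by 4.99% of all tested genes.

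Of 19 listed carriers and partners outside these families 18 were found by symbol in the data and 9 were tested. Of those tested 0 passed, 6 were higher and 3 lower, with a median of 0.04. Arl6ip1 had 99.9 ± 13.0 in PNMC libraries and 98.7 ± 29.2 in controls, and Arl6ip5, whose rat product restrains EAAT3, had 6.69 ± 1.27 and 6.34 ± 0.351 (SD, n = 3 and n = 2). The peptide carrier family gene Slc15a5, also among the most abundant of the list, is given in full after its values were seen. It had 5.86, 7.95 and 6.84 in PNMC libraries, against 2.90 and 2.22 in controls (log2 change 1.15, SE 0.305, limma adjusted p = 0.866). Slc16a10, the gene of the aromatic amino acid carrier TAT1, was named after its values were seen and had 3.79, 2.78 and 1.64 in PNMC libraries, against 5.44 and 8.29 in controls (log2 change -1.09, SE 0.355, limma adjusted p = 0.967). In both genes the groups did not overlap, as in 19.9% of all tested genes, and neither passed. They were the genes of this list with an unadjusted limma p under 0.05, a limit met by 4.99% of all tested genes.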

How the data were processed

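Per the labels' protocols, TRIzol was used to extract total RNA from the embryos and Smart-seq2 to prepare libraries. Of tools, the submitters' processing notes list Trimmomatic, HTSeq, HISAT2 (2.0.5) and DESeq2 (1.16.1), and of builds GRCm39. Neither the annotation nor the step that gave the final values is stated there. The authors deposited 1 table of a normalised signal per gene symbol and library, with no identifiers, coordinates or stated unit. Since its values hold fractions, no count test was run, no interval for counting error is given and the depth is unknown.

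From that signal, 12734 of 32285 genes entered the test, those that reached 1 in 2 or more libraries. On log2(value + 1), limma 3.58.1 in R 4.3.3 (trend and robust options on) tested PNMC (3) against control (2) libraries, with p-values adjusted by Benjamini-Hochberg at 0.05. Other steps used scipy 1.17.1 under Python 3.11.15. The procedure was tested on simulated data, with changes placed only in genes of higher mean level. That test does not cover low genes such as Slc6a7 and Slc6a4. Transcript lengths, shared words and exon overlaps come from GENCODE M21, a release on another build than the files, so no coordinates of it are given. All 67 genes matched RefSeq and GENCODE symbols. Means carry SDs over 3 PNMC and 2 control libraries.

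The members and gene lists were chosen with earlier results of these data known. Values in every library were given for detected members with a mean of at least 5, the 5 with the smallest p in each direction, and Slc6a9, Slc6a20a, Slc6a20b, Slc6a6, Slc3a1 and Slc3a2, and means for the 3 most abundant tested genes of each list. Slc15a5 is 1 of these most abundant genes and was given in full after its values were seen. Others given in full are said to be named after their values were seen, or are Slc7a2 and Slc7a6, named as members of their role. Alternatives were another pseudocount, filter, scaling and variance model, the replicate number as a block, and each library left out.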

Additional observations from a re-analysis of the deposited data

How the results depend on the processing

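No gene of the set passed the threshold under any alternative run (adjusted p of at least 0.649 for the named genes), and over all genes the count was 0 to 1 with 1 library left out, the 1 call coming without PNMC library 1, and 0 under the others. The number of detected genes was 17 where all 5 libraries had to reach 1 and 12 where 2 had to reach 5. The median log2 change of the set was 0.00407 with a minimum of 10, at which only 8 of its genes were tested. It was -0.000968 after median scaling, -0.00561 after quantile normalisation, and between -0.0876 and 0.0197 with 1 library left out. For the amino acid response list it was 0.11 after median scaling and between -0.0259 and 0.0635 with 1 library left out, for the enzymes of osmolyte and amino acid metabolism 0.00832 after median scaling and between -0.0814 and -0.0128, and for volume control between -0.0887 and 0.12. The sign turned under at least 1 alternative in 8 of the 20 named and tested genes. After median scaling Slc38a8 was at 0.000716 and Slc3a2 at 0.0333. With 1 library left out the log2 change ranged from -0.14 to 0.0370 for Slc3a2, -0.0143 to 0.17 for Slc6a9, -0.0920 to 0.28 for Slc6a20a, -0.69 to 0.0292 for Slc6a20b, -0.10 to 0.38 for Slc38a7, -0.27 to 0.12 for Slc38a8, -0.30 to 0.0103 for Slc43a3 and -0.0382 to 0.16 for Slc6a15. The cause of these changes was not tested. The libraries share replicate numbers 1 and 2, and the deviations of same-numbered libraries correlated at -0.0585 and -0.0433. With 2 controls the deviations of the controls mirror each other, so these values cannot decide whether the numbers mark pairs. PNMC library 3 has no control partner, so the replicate block takes it out of the comparison and gave the same log2 change as leaving it out for each named gene tested in both. With the replicate block the count of calls was 0, the median of the amino acid response list was -0.0259, Slc3a2 was at 0.00120 and Slc6a20a at -0.0920. Genes of the set at an unadjusted limma p under 0.05 numbered 2. The count was 1 with a pseudocount of 0.1, with quantile normalisation or without PNMC library 2. It was 0 with a minimum of 10, at which Slc6a7 and Slc6a4 were not tested. This count under the alternatives, the number of detected genes with a library left out and the order of levels per transcript length were chosen after seeing the data. The unknown depth limits what can be said of genes with values under 1.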
